A study of Zea mays with 18 samples.

Results

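The 150 maize genes described here had higher transcript levels at high than at low plant density in the ear leaf and in the third leaf below it, and reached similar levels in those leaves at high density. They were chosen from measured values. Of 31855 gene models, 21184 had at least 1 RPKM, a read count scaled to gene length and library size, in at least 3 of 18 libraries. Group means of log2(RPKM + 0.5) were taken, and 15179 genes had a mean in the lower leaf at high density within 0.5 of that in the ear leaf at high density. Each of these was scored by the smaller of its density differences in the ear leaf and the lower leaf, and the 150 highest scores were kept. The members' scores, and their differences between HE, LE, HB and LB as defined below, are therefore given as descriptions without a test.

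The libraries came from leaves of the hybrid Xianyu 335 at grain filling. H and L stand for high and low plant density, and A, E and B for the third leaf above the ear, the ear leaf and the third leaf below it. There were 6 groups of 3 libraries, HE and LE, HB and LB, and HA and LA. The groups follow the titles, but the 3 LA libraries carry high density as their treatment, so every comparison of HA with LA carries this conflict. The labels give no number of plants per area, and are silent on whether libraries within a group are from different plants, so p-values measure the spread between these samples only. The samples are bulk tissue, in which fewer cells of a type and less RNA per cell cannot be told apart.

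In dense stands leaves shade each other, and lower leaves receive less light, with less red relative to far-red light sensed by phytochromes. During grain filling, leaves also export sugars and nitrogen to the ear, and lower leaves are commonly the first to age. Jasmonate signalling, which is held back by repressors of the TIFY family, and transcription factors of the WRKY and MYB families take part in responses to stress, in leaf ageing and in the making of phenolic compounds.

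The sums of RPKM lay between 560984 and 595593 per library, and read totals were not given. From the steps between low values, relative depth was 0.918 to 0.957 in the 6 LE and LB libraries and 0.886 to 1.121 in the other 12. The LE and LB libraries also had fewer genes above 0, 25749 to 26187 against 26271 to 27316, and the part of this in the density differences was not tested. One read stood for a median of 0.052 RPKM in rare genes, so that the lowest levels below rest on few reads. HE replicate 2 stood apart for the members. It was the highest HE library for 112 of the 150 genes, against 37.9% of all tested genes, and HE replicate 1 was the lowest for 116, against 35.3%. The difference between replicates 2 and 1, taken gene by gene on the log2 scale, had a median of 1.05 over the members and 0.02 over all tested genes. The score used HE means and so favours genes with a very high HE library, and these values are a description only.

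The median density difference of the members on the log2 scale was 1.63 in the ear leaf, with a range of 1.18 to 3.70, and 1.47 in the lower leaf, with a range of 1.18 to 2.71. Over all tested genes the medians were 0.03 and 0.16. The difference was larger in the ear leaf for 101 of the 150 genes. At high density the lower leaf stood above the ear leaf by a median of 0.15, and 47 genes had the higher mean in HE. At low density the lower leaf was also slightly higher, by a median of 0.27. The 3 genes with the lowest scores inside the choice were GRMZM2G100543 at 1.18, GRMZM5G892025 at 1.18 and GRMZM2G029087 at 1.18, and the next genes, outside it, were GRMZM2G058459 at 1.17, GRMZM2G032107 at 1.16 and GRMZM2G423331 at 1.16. Differences at least as large in both leaves were found in 343 genes, of which 193 lay outside the limit on HB minus HE. Differences as large in the opposite direction were found in 64.

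**Figure D1:**
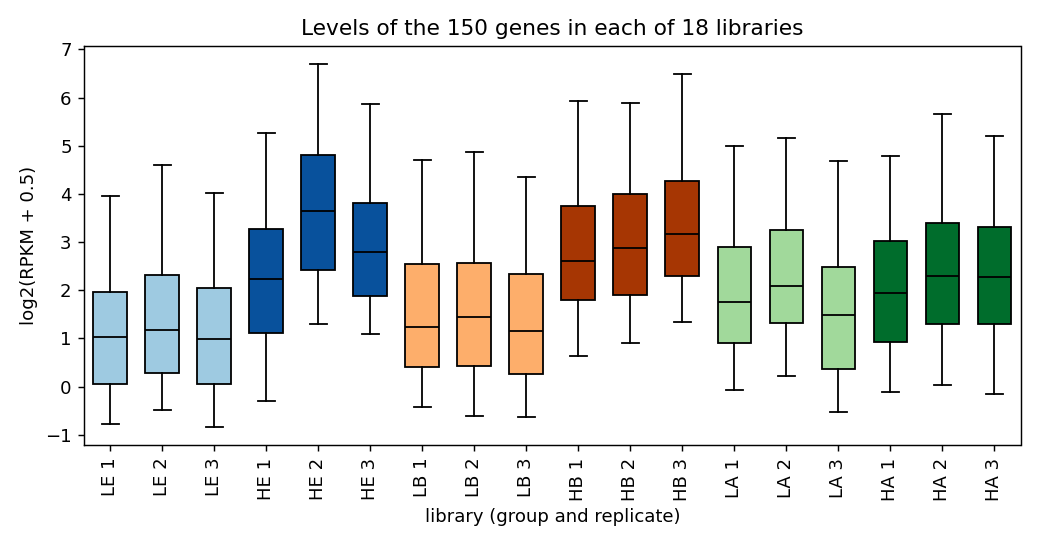
Levels of the 150 genes in each of the 18 libraries, as log2(RPKM + 0.5) on the vertical axis. Boxes span the quartiles with the median as a line, and whiskers run from the 5th to the 95th percentile. Medians lie between 0.98 and 1.45 in LE and LB, between 2.23 and 3.64 in HE and HB, and between 1.48 and 2.29 in LA and HA.

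The members' levels also differed between single libraries of a group. The median over the 150 genes was 1.03, 1.18 and 0.98 on the log2 scale in LE replicates 1, 2 and 3, and 2.23, 3.64 and 2.80 in HE. The HE libraries thus differed more among themselves than the LE libraries did. In LB the medians were 1.25, 1.45 and 1.15, and in HB they were 2.60, 2.87 and 3.16. The median standard deviation of a member's 3 libraries was 0.60 in HE against 0.13 over all tested genes, and 0.46 in HB against 0.17. In LE it was 0.33 against 0.17. In LE replicate 1 the median log2 level was 1.03 for the members and 3.32 over all tested genes. The spreads were not compared at like levels. Against the LE mean, the median difference was 1.02 in HE replicate 1, 2.16 in replicate 2 and 1.64 in replicate 3, and 127, 149 and 150 of the genes exceeded every LE library. In HB the corresponding medians were 1.35, 1.49 and 1.76, and 138, 144 and 150 genes exceeded every LB library. The choice of members favours such counts. No share over all tested genes was taken for them, and nothing is read from them.

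All 3 HE libraries lay above all 3 LE libraries in 126 members, against 22.5% of tested genes, and all HB above all LB in 132, against 26.3%. In 108 members neither leaf overlapped, against 11.2% of tested genes. The choice of members fixes these counts and nothing is read from them.

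The members were of low abundance. Their median over genes of the mean of all libraries was 4.27 RPKM, against 10.3 RPKM for all tested genes. At low density 52 members had a mean under 1 RPKM in LE and 41 in LB, whereas at high density 2 did so in HE and 0 in HB. At the other end, 60 members reached a mean of 10 RPKM in HB and 56 in HE, against 18 in LE and 23 in LB. The filter and the score favour this contrast between densities, and no share over all tested genes was taken for these counts. A gene under 1 RPKM in every LE, LB and upper leaf library could pass the filter only through HE or HB. No member was at 0 in every library of a group, but 9 were at 0 in at least 1 LE library and 8 in at least 1 LB library.

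The highest score belonged to TIFY4 (GRMZM2G445634), of the TIFY family, which includes the JAZ repressors of jasmonate signalling. It was nearly silent in LE, at 0.346, 0.465 and 0.342 RPKM in replicates 1, 2 and 3, and read 2.13, 46.7 and 11.8 RPKM in HE. In LB it read 1.88, 1.16 and 0.818 RPKM, and in HB 2.87, 15.6 and 26.4 RPKM. No high-density library of either leaf overlapped its low-density group, although replicate 1 was the lowest library of both HE and HB. The difference was 3.70 on the log2 scale in the ear leaf and 2.71 in the lower leaf. The upper leaf read 4.35, 6.29 and 0.721 RPKM in LA and 4.67, 5.10 and 5.59 RPKM in HA, with LA replicate 3 far below the others. HA minus LA was 0.71 ± 0.85 (SE, n = 3 and 3, adjusted p = 0.825 in limma, a linear model with a spread per gene shared by all 6 groups).

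The other member of this family, TIFY10 (GRMZM2G145458), was much less abundant and close to the threshold of the choice. It read 0.0810, 0.389 and 0.5597 RPKM in LE and 0.213, 3.73 and 1.62 RPKM in HE. HE replicate 1 therefore lay within the LE range. LB read 0.629, 0 and 0.0797 RPKM and HB 2.01, 1.71 and 1.06 RPKM, without overlap. In the upper leaf all 6 libraries were at or below 0.675 RPKM, and HA minus LA was -0.34 ± 0.49 (SE, n = 3 and 3, limma adjusted p = 0.858).

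WRKY67 (GRMZM2G090594) belongs to the WRKY family of plant transcription factors, many of which act in defence and leaf ageing. Levels were 0.668, 1.15 and 0.330 RPKM in LE and 1.64, 6.68 and 2.30 RPKM in HE, with replicate 2 highest in both. LB read 0.880, 0.846 and 1.18 RPKM and HB 2.99 to 3.69 RPKM, without overlap. The density differences were 1.58 in the ear leaf and 1.36 in the lower leaf. In the upper leaf LA read 1.13 to 2.07 RPKM and HA 1.09 to 1.55 RPKM, and the groups overlapped (HA minus LA -0.17 ± 0.35, SE, n = 3 and 3, limma adjusted p = 0.911).

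MYB38_1 (GRMZM2G419239), also listed as ZmMYB42, is a MYB factor known in maize as a repressor of lignin pathway genes. It was one of the more abundant named members, at 11.6, 19.0 and 9.20 RPKM in LE and 37.7, 29.3 and 27.3 RPKM in HE. Here replicate 1, not replicate 2, was the highest HE library. LB read 8.73, 15.3 and 13.9 RPKM and HB 41.3, 27.5 and 53.4 RPKM, and neither leaf showed overlap. The upper leaf stayed near the low-density level of the other leaves, with LA at 20.7, 17.7 and 9.91 RPKM and HA at 11.98, 14.2 and 14.0 RPKM. HA minus LA was -0.20 ± 0.30 (SE, n = 3 and 3, limma adjusted p = 0.871).

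GRMZM2G070011 is named vignain, a papain-type cysteine endopeptidase of a kind known for breaking down protein in germinating seeds and ageing tissue. It was the most abundant of the named members, at 38.9, 118.8 and 41.0 RPKM in LE and 148.8, 216.9 and 207.6 RPKM in HE. LB read 53.8, 66.5 and 43.7 RPKM and HB 197.0, 102.2 and 160.9 RPKM. Neither leaf overlapped, with LE replicate 2 the closest low-density library. No upper leaf library reached the HE or HB levels, with 41.8, 36.5 and 11.3 RPKM in LA and 27.1, 84.0 and 77.9 RPKM in HA. HA minus LA was 1.10 ± 0.50 (SE, n = 3 and 3, limma adjusted p = 0.546), with HA replicate 1 inside the LA range.

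GRMZM2G066197 carries the synonym Rhodopsin, and no role is given to it here. It read 14.2, 13.4 and 9.28 RPKM in LE against 23.6, 69.6 and 37.3 RPKM in HE. LB read 19.6, 20.5 and 14.4 RPKM against 40.9, 58.3 and 67.0 RPKM in HB. Replicate 2 was again the highest HE library, and neither leaf overlapped. In the upper leaf LA spanned 17.7 to 26.9 RPKM and HA 23.6 to 27.4 RPKM, and HA minus LA was 0.23 ± 0.29 (SE, n = 3 and 3, limma adjusted p = 0.833).

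**Figure D2:**
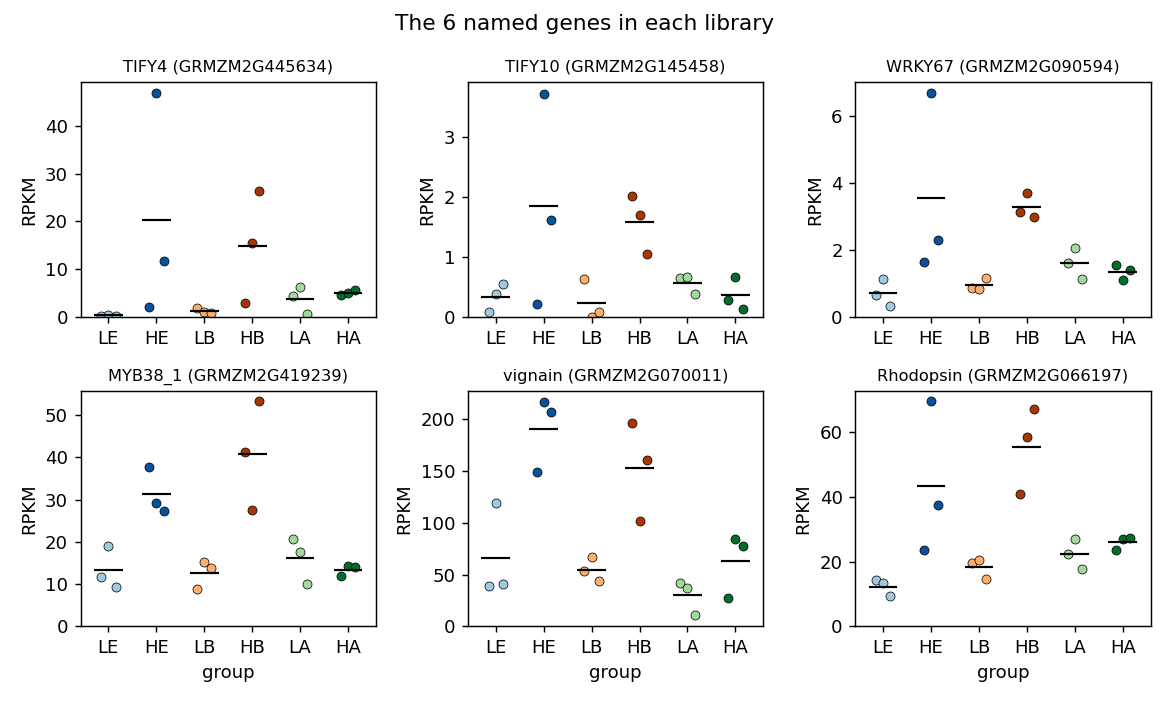
RPKM of the 6 members with an informative name in each library, 1 panel per gene with its own linear axis from 0. Points are libraries and lines are means of 3. TIFY4 spans 2.13 to 46.7 RPKM in HE, while MYB38_1 spans 27.3 to 37.7 RPKM.

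These 6 were the only members to which the RefSeq gene table gave an informative name. Of the 150 members, 82 (54.7%) matched a row of that table, against 67.1% of tested genes, and 4.0% had an informative name against 9.27%. Clone-based identifiers made up 6.0% of the members and 3.71% of tested genes. The genes named by identifier below were picked after their values were seen, and no role is given to them. Among the 82 members placed in the RefSeq gene order, 1 pair lay within 5 places of each other. GRMZM2G322817 and GRMZM2G024517 were 1 place apart, and their density differences in the ear leaf were 2.23 and 1.70.

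The members split by how the HE libraries compared. In 81 of them (54.0%) HE replicate 2 was at least 2 times replicate 1, which held for 4.44% of tested genes, while the reverse held for 5 members. The 81 made up 8.61% of the tested genes with that spread. They included 9 of the 10 genes with the highest scores. AC225718.2_FG006 read 21.1, 384.6 and 114.4 RPKM in HE against 11.2, 23.7 and 14.4 RPKM in LE, so replicate 1 lay within the LE range. In HB it read 182.5, 59.9 and 166.8 RPKM against 32.0, 17.0 and 15.5 RPKM in LB. HB did not overlap LB, and its lowest library was replicate 2.

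GRMZM2G020054 showed the widest such spread among the genes named here, at 0.123, 16.5 and 2.71 RPKM in HE against 0.0460 to 0.140 RPKM in LE. Its HB levels were 5.17, 1.72 and 5.64 RPKM, and HA and LA stayed between 0.265 and 1.03 RPKM. GRMZM2G149024 read 0.365, 14.8 and 2.96 RPKM in HE, and no library of the upper leaf exceeded 0.434 RPKM. In these genes HE replicate 1 lay nearer to the low-density and upper leaf levels than to the other HE libraries. GRMZM2G357631 followed the same order at 6.09, 105.3 and 32.9 RPKM in HE, 41.1, 14.7 and 42.3 RPKM in HB and 3.18 to 6.11 RPKM in LE. GRMZM2G479529 read 7.17, 59.6 and 21.9 RPKM in HE but only 18.8 to 28.5 RPKM in HB.

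Among the 81 genes HB replicate 2 was the lowest HB library in 46, against 23 of the other 69, and 32.5% of tested genes. Their median density differences were 1.81 in the ear leaf and 1.53 in the lower leaf, against 1.52 and 1.42 in the other 69. The 69 had a median ratio of HE replicate 2 to replicate 1 of 1.14, against 6.24 in the 81. The split uses HE values and is a description only. Over all 150 genes, HE replicate 1 was at or below the highest HA library in 109, replicate 2 in 27 and replicate 3 in 39. These counts rest on HE values that the choice used, have no share over all tested genes beside them, and nothing is read from them.

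When the choice was repeated without 1 of the 12 HE, LE, HB and LB libraries at a time, 14 members were chosen every time, and 13 of them came from the 69. The split bears on this count, since leaving out HE replicate 1 or 2 moves the HE mean most where these differ. None of the 14 had an informative name, and their lowest score was 1.28. GRMZM2G146847 read 3.28, 3.21 and 4.33 RPKM in LE and 9.15, 10.1 and 9.77 RPKM in HE. In LB it read 4.26, 4.83 and 2.84 RPKM and in HB 10.5, 10.5 and 13.9 RPKM, so the high-density libraries were tightly grouped in the ear leaf. GRMZM2G009544 was similar in the ear leaf, with 2.91, 2.79 and 2.27 RPKM in LE and 9.76, 11.6 and 9.46 RPKM in HE, but HB replicate 1 at 5.81 RPKM lay below the other HB libraries at 12.3 and 12.1 RPKM. GRMZM2G449257 was the only 1 of the 10 highest scores in this set, at 1.0004, 1.46 and 0.800 RPKM in LE and 10.2, 4.72 and 11.5 RPKM in HE. Its HE replicate 2 was the lowest of the 3, the opposite of TIFY4. GRMZM5G862956 stayed at or under 0.315 RPKM in every LE and LB library and between 0.737 and 1.49 RPKM in HE and HB. It could pass the filter on low values only through groups other than LE and LB, so this contrast follows from the choice.

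Read in libraries that the repeated score had not used, the differences kept their direction in most genes. The filter on low values had used all 18 libraries, the left-out ones included. Low genes could pass it through left-out HE or HB libraries, so these readings are a description only. When the 150 genes were chosen without replicate 1 of HE, LE, HB and LB, the left-out libraries gave a median of 0.94 in the ear leaf, against 1.89 in the libraries used, and 139 of 150 were above 0, where 55.0% of all tested genes were. In the lower leaf the median was 1.01 against 1.74, and 124 were above 0, against 63.0% of tested genes. Without replicate 2 the left-out medians were 1.14 in the ear leaf and 0.82 in the lower leaf, against 1.43 and 1.39 in the libraries used. Of the 150 genes 141 and 134 were above 0, against 53.3% and 54.5% of tested genes. Without replicate 3 the medians were 1.63 and 1.89, against 1.61 and 1.37 in the libraries used, and 149 and 147 genes were above 0, against 50.6% and 66.3% of tested genes. The limit on HB minus HE was met by fewer, 24, 87 and 59 of the 150 genes in the left-out libraries. The genes themselves changed with the libraries, since 61, 58 and 91 of those chosen were among the 150. Each left-out reading rests on 1 library per group and has no test.

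The upper leaf entered the choice through the filter on low values only, and not through the score. Its level was placed on a scale on which 0 is the mean of LE and LB and 1 the mean of HE and HB, in log2 units. The mean of HA and LA lay at a median of 0.41 on this scale. In 37 members it lay under 0.25, in 86 between 0.25 and 0.75, and in 27 above 0.75. Both ends of this scale were set by the choice, which picked genes low in LE and LB and high in HE and HB, so a place between them is no finding. For the same reason the order of the groups is given as a description only. LA lay above LE in 139 of the 150 genes, against 44.1% of tested genes, and HB was the highest group in 99 members, HE in 37, HA in 13 and LA in 1. LE was the lowest group in 120.

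**Figure D3:**
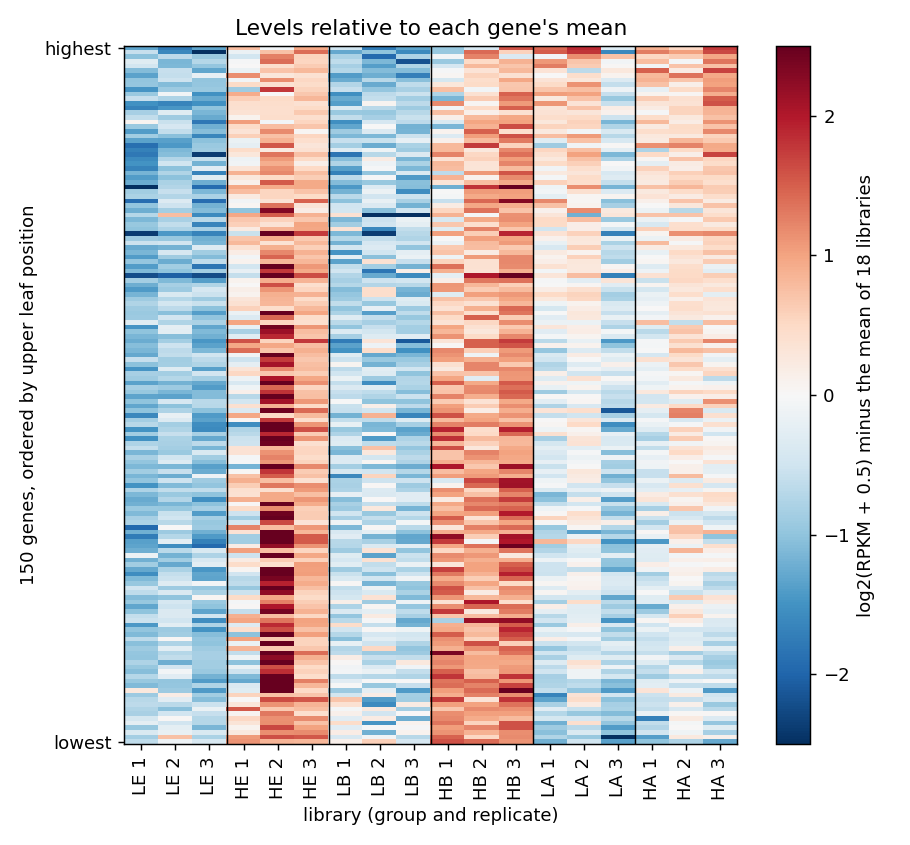
Level of each of the 150 genes (rows) in each library (columns) as log2(RPKM + 0.5) minus the gene's mean over 18 libraries, ordered from the highest to the lowest upper leaf position. Values beyond the ends of the colour scale take the end colour. HE replicate 2 is the darkest red column in many of the genes, and the LA and HA columns turn from red to blue from top to bottom.

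GRMZM2G070912 had the highest upper leaf position, 1.43. It read 0.544, 0.261 and 0.537 RPKM in LE and 3.94, 1.93 and 4.58 RPKM in HE. LA read 6.51, 8.96 and 1.55 RPKM and HA 4.28, 3.23 and 8.16 RPKM, so 3 of the 6 upper leaf libraries exceeded every HE library. GRMZM2G439668 was next at 1.22, with LA replicate 3 at 0.483 RPKM and the other 5 upper leaf libraries between 5.63 and 9.99 RPKM. At the other end, GRMZM2G148721 had a position of -0.67. It read 1.24 to 1.95 RPKM in LE and 4.32 to 5.39 RPKM in HE, while LA read 0.559 to 1.40 RPKM and HA 0.615 to 1.09 RPKM. Vignain followed at -0.34 and GRMZM2G134597 at -0.26.

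Density in the upper leaf was the comparison that the score did not use. Its SE and adjusted p rest on the spread within all 6 groups, so the wide HE spread of the members enters them. The median standard deviation of a member was 0.35 in HA and 0.42 in LA, against 0.60 in HE. GRMZM2G082387 was the 1 member called, higher in HA, where 0.0566% of tested genes were called higher, and 0 members were called lower, where 0.0614% were. GRMZM2G082387 read 2.36, 3.69 and 4.04 RPKM in LA and 6.81, 7.85 and 8.48 RPKM in HA. The groups did not overlap, and HA minus LA was 1.11 ± 0.18 on the log2 scale (SE, n = 3 and 3, limma adjusted p = 0.0293). In the leaves used by the choice it read 2.41 to 2.85 RPKM in LE, 7.75 to 11.7 RPKM in HE, 4.44 to 4.98 RPKM in LB and 10.1 to 14.3 RPKM in HB. By the titles, its H libraries lay above its L libraries at all 3 leaf positions. The order in the ear and lower leaf follows from the choice, and the LA libraries carry high density as their treatment. The call was lost without HA replicate 2 (adjusted p = 0.107), HA replicate 3 (0.189), LA replicate 1 (0.141) or LA replicate 2 (0.0544), and when the fit held only the HA and LA libraries (0.157).

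Without adjustment, limma gave p under 0.05 for 18 members as higher in HA, where 5.33% of tested genes did so, and for 0 as lower, where 3.47% did so. With 3 libraries on each side, the smallest p of an exact 2-sided permutation test is 0.1. All HA libraries lay above all LA libraries in 22 members, against 9.12% of tested genes, and all below in 1, against 5.2%. The median HA minus LA of the 150 was 0.29, with quartiles of 0.03 and 0.58 and a range of -0.69 to 1.62. Over all tested genes the median was 0.05, with quartiles of -0.10 and 0.19. HA exceeded LA in 116 members (77.3%) and in 59.2% of tested genes. These are counts beside the background and were not tested as a set.

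Library order bears on this median. LA replicate 3 was the lowest LA library in 105 members, against 42.5% of tested genes, LA replicate 2 the highest in 102, against 55.5%, and HA replicate 1 the lowest HA library in 96, against 29.9%. Without LA replicate 3 the members' median HA minus LA was 0.08, and without LA replicate 2 it was 0.47. The 69 genes without the wide HE spread had a median of 0.39, with 60 above 0, against 0.19 and 56 in the 81. The 14 genes chosen every time, mostly among the 69, had a median of 0.53. These sets were formed from values that the choice used, and their medians were not compared by a test.

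**Figure D4:**
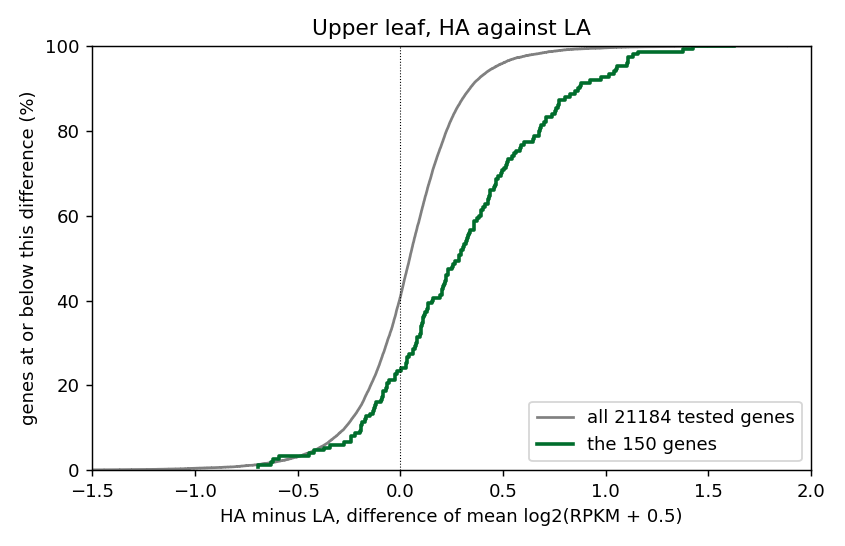
Cumulative percent of genes at or below each difference HA minus LA of mean log2(RPKM + 0.5), for the 150 genes and for all 21184 tested genes. The curve of the 150 lies to the right of that of all genes through most of its range, with medians of 0.29 and 0.05, and the curves meet below about -0.5.

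Other unnamed members had upper leaf differences near or above that of GRMZM2G082387 that did not pass the adjusted threshold. GRMZM2G106363 came closest, with HA minus LA of 1.04 ± 0.21 (SE, n = 3 and 3, limma adjusted p = 0.071). GRMZM2G301485 had the largest difference, 1.62 ± 0.43 (limma adjusted p = 0.211). GRMZM2G351318 read 6.23, 9.9996 and 8.12 RPKM in LA and 12.7, 22.7 and 21.6 RPKM in HA, without overlap, and 5.49 to 7.85 RPKM in LE against 21.0 to 34.5 RPKM in HE. Its adjusted p for HA minus LA was 0.427 in limma, with a difference of 1.16 ± 0.40.

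Of 30 name-based gene lists for leaf, hormone and stress functions, 14 held a tested gene and 3 held a member. These were the jasmonate and oxylipin list, chiefly TIFY genes, the WRKY factors and the MYB factors. Genes of the jasmonate list were matched by name and not checked to act in jasmonate signalling. The counts below leave the members out. Among 14 other genes of the jasmonate list, limma called 1 higher and 0 lower in HE, where 8.97% and 4.97% of all tested genes were called, with a median difference of 0.12 against 0.03 over all genes. In HB it called 8 higher and 1 lower, where 22.1% and 11.3% of tested genes were called, with a median of 0.40 against 0.16. The HE call, TIFY2 (GRMZM5G838098), was lost without HE replicate 2 or 3 or LE replicate 2 or 3. In HB the higher calls numbered 4 without HB replicate 2 or 3 and 3 without LB replicate 3, and the lower call, TIFY21, was lost without HB replicate 2 or 3 or LB replicate 1 or 2. TIFY2 was 1.78 ± 0.36 higher in HB than in LB (SE, n = 3 and 3, limma adjusted p = 0.00146), and TIFY6 0.92 higher (adjusted p = 0.000489). Both calls held without each library of HB and LB in turn.

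The WRKY list had 17 other genes, and 2 were called higher in HE, where 8.97% of tested genes were, and 12 in HB, where 22.1% were, with 0 lower in either. Their median differences were 0.26 and 0.71, against 0.03 and 0.16 over all tested genes. The HE count fell to 1 without HE replicate 2 or 3 or LE replicate 1 or 3, and the HB count to 7 without HB replicate 3. WRKY29 (GRMZM2G040298) was called in both leaves under each omission. Its mean was 17.2 RPKM in HE against 8.98 RPKM in LE, a difference of 0.91 ± 0.18 (SE, n = 3 and 3, limma adjusted p = 0.0056), and 26.7 RPKM in HB against 13.5 RPKM in LB, 0.97 ± 0.18 (adjusted p = 0.000789).

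The MYB list was matched on names and synonyms. It also holds genes named Amy2, ATSWI3B and hxa103, which were not checked to be MYB factors. Among its 34 other genes, 11 were called higher and 0 lower in HE, where 8.97% and 4.97% of tested genes were called. In HB 9 were called higher and 5 lower, where 22.1% and 11.3% of tested genes were called, so the HB counts were near the background. The median differences were 0.32 and 0.30, against 0.03 and 0.16 over all tested genes. The HE count was 6 without HE replicate 2 or LE replicate 3. In HB the higher calls numbered 18 without LB replicate 2, and the lower calls 3 without LB replicate 3. MYB1_2 was 1.05 higher in HE (limma adjusted p = 0.003) and 0.88 higher in HB (adjusted p = 0.00173), and MYB61 0.81 and 0.70 higher (adjusted p = 0.0105 and 0.00795). These calls held under each omission. In the upper leaf 0 of the other jasmonate and WRKY genes were called, and 2 MYB genes were, where 0.0566% of tested genes were called higher. The medians of HA minus LA were 0.088, 0.015 and 0.175 for the other genes of the jasmonate, WRKY and MYB lists. MYBR47 had a mean of 14.2 RPKM in HA and 0.880 RPKM in LA (limma adjusted p = 0.00103), and MYBR87 of 46.0 RPKM and 8.38 RPKM (adjusted p = 0.0117). In HB minus LB, MYBR87 differed by -1.40 (adjusted p = 0.00451), so it did not share the members' pattern.

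Marker genes of leaf cell types were read in the same libraries, and none of them is a member. The summed level of the 3 phloem and vein genes found, of 6 sought, was 413.9 to 535.8 RPKM in HE against 339.5 to 387.4 RPKM in LE, and 495.2 to 527.0 RPKM in HB against 345.2 to 484.6 RPKM in LB. In the lower leaf the 3 genes differed, with means in HB and LB of 146.6 and 51.9 RPKM for sh1, 244.9 and 239.2 RPKM for sut1, and 120.1 and 121.8 RPKM for sus1. In the upper leaf the sum was 298.4 to 444.9 RPKM in HA and 292.4 to 359.9 RPKM in LA, and the LA and LE ranges overlapped. The 4 mesophyll genes found, 1 of them a second match to the symbol pep1 that is not the C4 gene, summed to 9102 to 11158 RPKM in HE, 10622 to 13229 RPKM in LE, 2212 to 3178 RPKM in HB and 6393 to 12237 RPKM in LB. Bundle sheath genes, 3 of 7 sought, summed to 1529 to 1853 RPKM in HE against 949 to 1342 RPKM in LE, but to 751 to 1301 RPKM in HB against 1479 to 1877 RPKM in LB. Epidermal genes, 3 of 6 found, gave 30.5 to 37.1 RPKM in HE, 30.0 to 33.0 RPKM in LE, 21.65 to 23.95 RPKM in HB and 30.0 to 33.8 RPKM in LB. Guard cell genes, 2 of 5 found, gave 7.64 to 9.48 RPKM in HE against 10.06 to 11.19 RPKM in LE. In HB they gave 4.96 to 7.4 RPKM against 4.94 to 11.59 RPKM in LB. In the upper leaf they gave 11.13 to 13.15 RPKM in HA and 8.38 to 9.73 RPKM in LA. The ageing genes, 4 of 6 found, summed to 1568 to 1757 RPKM in HE, 1686 to 1715 RPKM in LE, 2016 to 2733 RPKM in HB and 1905 to 2198 RPKM in LB. Most of this was see1, with means of 1987 RPKM in HB and 2051 RPKM in LB. The gene sgr2 had means of 46.4 RPKM in HB and 6.09 RPKM in LB, icl had means of 202.4 RPKM in HB and at most 0.22 RPKM elsewhere, and lip 134.0 RPKM and at most 0.25 RPKM. The part of these cell types in the members' differences was not tested.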

How the data were processed

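Transcripts were measured by RNA-seq in 18 libraries from Trizol-type extracts and NEBNext Ultra RNA kits, per the labels' protocols. The submitters' processing notes name Trimmomatic 0.35, HISAT 0.1.6, HTSeq 0.6.1 and B73 RefGen_v3. The authors deposited RPKM values per gene. For the RPKM formula, gene lengths and strand setting, the answer is not given in the sources used here, so overlapping and near-identical genes are uncertain. Absolute depth is unknown and no counting interval is given. Relative depth came from 836 rare genes, in which 98.7% of 4492 values above 1 read lay within 0.1 of a whole multiple.

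Genes at 1 RPKM or more in 3 libraries or more were tested as log2(RPKM + 0.5), a scale that understates changes of low genes, with limma 3.58.1 in R 4.3.3 (1 mean for each of 6 groups, trended prior variance, 2-sided, 12 residual and 4.47 prior degrees of freedom). Benjamini-Hochberg adjustment ran over 21184 genes, with calls at an adjusted p under 0.05. The fit was tested on simulated data. The members and lists were chosen with earlier results of these data known. Named genes were members with an informative RefSeq name (assembly Zm-B73-REFERENCE-NAM-5.0, names and gene order only), taken by score, by the upper leaf call and by list, and the genes at the edge of the choice. Alternatives changed the pseudocount, filter, scaling, libraries, samples in the fit and replicate block.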

Additional observations from a re-analysis of the deposited data

Results flagged for a closer look

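GRMZM2G003937 was singled out because its libraries moved in opposite directions. It read 27.8, 32.4 and 29.9 RPKM in LA and 14.9, 24.6 and 19.4 RPKM in HA, so every HA library lay below every LA library. It was the 1 member of the 150 with that order. HA minus LA was -0.63 ± 0.35 on the log2 scale (SE, n = 3 and 3, limma adjusted p = 0.629). This SE rests on the spread within all groups, the wide HE libraries included. In the ear leaf it read 15.8, 16.7 and 13.9 RPKM in LE and 19.9, 86.5 and 34.4 RPKM in HE, and in the lower leaf 25.1, 15.8 and 26.1 RPKM in LB and 60.4, 44.2 and 54.2 RPKM in HB, without overlap in either. The directions in the ear and lower leaves follow from the choice of members, and the difference between leaves was not tested.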

How the results depend on the processing

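The choice of the 150 genes depended on HE and HB libraries. With 1 library of HE, LE, HB or LB left out in turn, 78 to 139 of the newly chosen genes were among the 150. The lowest overlaps were 78 without HE replicate 2, 82 without HE replicate 1 and 94 without HB replicate 1, and the cause was not tested. Other pseudocounts, filters and scalings gave 105 to 149. The members called higher in HA numbered 1 in the reported fit, 0 to 1 when 1 HA or LA library was left out, and 0 when the fit held only the HA and LA libraries, while 0 were called lower under every alternative. Over all genes, 25 were called in the reported fit, 34 with a pseudocount of 1, 13 with a pseudocount of 0.1, 2 to 17 with 1 library left out and 2 with the HA and LA libraries only. The members' median HA minus LA stayed above 0, from 0.08 without LA replicate 3 to 0.47 without LA replicate 2. For single genes, 489 values stayed on the same side of the threshold and 5 no longer passed it, all of GRMZM2G082387. A change of sign in a gene called in neither fit was counted among the 489. With at least 5 RPKM in 3 libraries, 105 members were tested.

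Replicate numbers did not pair HA with LA, with correlations of deviations of -0.076, 0.13 and -0.15. Adding the replicate block to the fit called 1 member higher and 0 lower, and 36 genes in all, against 25.

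Depth limits the lowest members, for which 1 read is a large step, and 3 libraries per group limit every test.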
